A study of Mus musculus with 4 samples.

Results

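The nuclear genes for subunits of the mitochondrial respiratory chain and of ATP synthase were examined for recovery in Foxp1 chromatin immunoprecipitation (ChIP) from mouse mammary epithelium. Members were chosen by symbol: Nduf genes of the a, b, c, s and v series, Sdha to Sdhd, names beginning with Uqcr or Atp5, and names beginning with Cox4 to Cox8, without pseudogene names. This took 83 of the 24548 genes in the table, and 80 of them, among 23128 genes in all, had 40 or more reads summed over the 4 libraries and were tested. The other 3 were the complex I genes Ndufs1 with no read in any library, Ndufs5 with 1 read in all and Ndufa3 with 14 reads in all. The next lowest, Ndufa1 and Uqcr10, had 77 reads each. By complex, the 80 comprised 32 genes of complex I, 4 of complex II, 8 of complex III, 18 of complex IV and 15 of complex V, with Ndufa4 counted in complex IV, and 3 related genes (Atp5s, Cox7a2l and Ndufa4l2).

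The respiratory chain sits in the inner mitochondrial membrane. Complexes I and II pass electrons from NADH and succinate to ubiquinone, complex III passes them on to cytochrome c and complex IV to oxygen, and the proton gradient built on the way drives ATP synthase, also called complex V. Most subunits are encoded in the nucleus, and many of these genes are known to carry sites for NRF1, for the ETS factor GABP (NRF-2), for YY1 and for Sp1 near their starts. Foxp1 is a forkhead transcription factor, and members of that family bind sequences such as TGTTTAC.

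Foxp1 ChIP and input DNA, which is chromatin sequenced without antibody, were sequenced from basal epithelial cells and from luminal epithelial cells of wild-type FVB/N females aged 10 to 12 weeks (the strain field of the samples reads FBV/N). Mammary ducts have an outer layer of contractile basal cells around the luminal cells that face the lumen. Each of the 4 groups had 1 library, no genotype or treatment differed between them, and neither a control antibody nor the number of animals is given in the sources used here. All intervals below therefore cover counting error only, and no difference could be set against a spread between animals.

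Reads in the gene table numbered 3772902 (ChIP) and 3080114 (input) for basal cells, and 3163948 and 4201459 for luminal cells, with a median of 136 to 192 reads per tested gene. The Foxp1 gene stood at 551 reads over 203 of input in basal cells and 315 over 249 in luminal cells, 2.30-fold and 1.72-fold after scaling. The 8 basal epithelial markers checked ran from 0.00 for Trp63 to 0.86 for Krt14 on the log2 scale of ChIP over input in basal cells, with 2 called higher (Krt5 and Krt14), and from -0.46 to 0.08 in luminal cells, with none called. The 8 luminal markers ran from -0.48 for Elf5 to 1.01 for Gata3 in luminal cells, with 2 called higher (Krt8 and Gata3), and from -0.47 to 0.45 in basal cells, with none called. Most markers of either cell type were therefore not called in their own cells. These are counts of DNA, so they do not show whether a marker gene is expressed.

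Promoter sequences, 250 bases before to 50 bases after an annotated start, were available from RefSeq (GRCm38.p6) for 66 of the tested members and for 17432 tested genes in all. Both strands were searched, so each motif also stands for its reverse complement. The forkhead core TGTTTAC was in 1 of the 66 promoters, 1.52%, against 3.53% of all promoters, and TGTTTAT was in 0 of 66 against 4.58%. The NRF1 core GCATGCGC was in 10 promoters or 15.2% against 3.99%, the ETS core CCGGAAG in 16 or 24.2% against 12.8%, and the YY1 core AAGATGGC in 9 or 13.6% against 3.56%. The Sp1 box GGGCGGG was in 23 promoters, 34.8% against 37.0%, and TATAAA in 6, 9.09% against 14.3%. None of these motifs contains another, a match is a description of the sequence only, and 23 of the 66 members had none of them in any of their windows. Taking the window with the most CpG pairs for each gene, the members had a median of 19 (range 2 to 43) against 15 over all tested genes with a promoter. Members with the ETS core had a median log2 ratio of ChIP over input of 0.10 in basal and 0.13 in luminal cells, members without it 0.03 and 0.08. Members with the NRF1 core had medians of -0.03 and -0.07, and those without it 0.07 and 0.12.

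Shown first are the promoters of the 5 members that were called in ChIP over input and had an entry, and then that of Cox7a2, the single promoter with the forkhead core. Each is written 5′ to 3′ on the strand of the gene, with motif matches in capitals. Uqcrh has an ETS core beginning 10 bases before the start, Ndufa8 a Sp1 box 101 bases and an NRF1 core 8 bases before it, and Cox8b the letters TATAAA 4 bases after the annotated start. In the Ndufa4 and Ndufb5 windows none of the motifs was found. In Cox7a2, at 1 of its annotated starts, the reverse complement of that core, GTAAACA, begins 212 bases before the start.
Uqcrh, chr4:116075021-116075320, minus strand: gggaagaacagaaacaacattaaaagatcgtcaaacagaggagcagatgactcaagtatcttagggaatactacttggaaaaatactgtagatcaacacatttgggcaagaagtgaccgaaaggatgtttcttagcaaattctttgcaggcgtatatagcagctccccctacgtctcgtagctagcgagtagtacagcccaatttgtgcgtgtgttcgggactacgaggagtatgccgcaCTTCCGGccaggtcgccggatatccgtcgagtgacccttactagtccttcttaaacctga
Ndufa4, chr6:11907401-11907700, minus strand: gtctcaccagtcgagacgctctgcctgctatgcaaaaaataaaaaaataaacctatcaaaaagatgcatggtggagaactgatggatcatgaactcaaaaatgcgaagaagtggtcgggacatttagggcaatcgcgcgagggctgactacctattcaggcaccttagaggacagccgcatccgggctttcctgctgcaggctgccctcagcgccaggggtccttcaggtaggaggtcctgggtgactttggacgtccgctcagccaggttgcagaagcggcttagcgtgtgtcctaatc
Ndufb5, chr3:32736813-32737112, plus strand: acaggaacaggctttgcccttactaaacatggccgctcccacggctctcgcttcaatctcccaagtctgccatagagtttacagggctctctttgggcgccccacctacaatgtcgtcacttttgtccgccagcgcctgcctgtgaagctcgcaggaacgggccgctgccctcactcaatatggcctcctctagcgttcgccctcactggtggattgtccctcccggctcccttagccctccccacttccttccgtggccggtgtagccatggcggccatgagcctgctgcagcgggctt
Ndufa8, chr2:36049289-36049588, minus strand: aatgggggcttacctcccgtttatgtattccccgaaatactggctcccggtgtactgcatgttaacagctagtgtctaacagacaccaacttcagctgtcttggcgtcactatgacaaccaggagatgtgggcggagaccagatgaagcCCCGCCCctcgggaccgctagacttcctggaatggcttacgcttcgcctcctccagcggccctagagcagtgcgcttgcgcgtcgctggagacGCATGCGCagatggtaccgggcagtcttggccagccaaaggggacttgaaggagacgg
Cox8b, chr7:140900397-140900696, minus strand: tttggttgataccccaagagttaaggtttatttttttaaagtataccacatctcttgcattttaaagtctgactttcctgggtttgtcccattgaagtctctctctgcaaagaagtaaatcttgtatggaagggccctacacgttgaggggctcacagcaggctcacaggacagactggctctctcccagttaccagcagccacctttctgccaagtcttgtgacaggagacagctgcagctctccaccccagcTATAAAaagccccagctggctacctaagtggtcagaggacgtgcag
Cox7a2, chr9:79759804-79760103, minus strand: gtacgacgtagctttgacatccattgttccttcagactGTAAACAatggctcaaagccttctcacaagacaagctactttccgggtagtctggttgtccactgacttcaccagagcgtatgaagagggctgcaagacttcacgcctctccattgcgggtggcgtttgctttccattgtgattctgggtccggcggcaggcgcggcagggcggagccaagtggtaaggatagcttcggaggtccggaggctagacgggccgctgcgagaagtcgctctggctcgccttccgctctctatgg

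Over all 80 members, little separated ChIP from input in either cell type. A gene was called higher or lower when scaled ChIP reads differed 1.5-fold or more from input reads and the exact 99% Clopper-Pearson interval of the ratio excluded 1. In basal cells 3 members were called higher (Uqcrb, Uqcrh and Ndufa4), where the share over all tested genes was 4.24%, and 3 lower (Ndufb5, Uqcrq and Cox8b), where it was 4.06%. In luminal cells 1 member was called higher (Uqcrq) against 1.5% of all tested genes, and 1 lower (Ndufa8) against 2.13%. These shares, 3.75% and 3.75% in basal and 1.25% and 1.25% in luminal cells, lie close to the background. The complexes taken singly below hold few genes, so a complex without calls is not read as a result. No member was called in the same direction in both cell types, 73 were called in neither, and Uqcrq was called lower in basal and higher in luminal cells. The matching shares over all tested genes are not given here. These counts of overlap are therefore not read as a result about the members.

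The median log2 ratio of the members was 0.03 in basal cells (quartiles -0.14 and 0.25) against -0.01 over all tested genes, and 0.08 in luminal cells (quartiles -0.21 and 0.25) against -0.00. Above 0 were 43 members in basal and 48 in luminal cells, 53.75% and 60.0% against 48.4% and 49.6% of all tested genes. Of the members, 28 were above 0 in both cell types and 17 below 0 in both. With the total reads of the table as scale the basal median became -0.03 with 39 members above 0, and with the olfactory receptor genes' median set to 0 it became 0.24 with 65 above 0, so its sign depends on the scale. In luminal cells the 48 members above 0 became 46 and 54. Summed over members there were 11459 reads of ChIP and 9045 of input from basal cells, and 9951 and 12704 from luminal cells, or 0.304%, 0.294%, 0.315% and 0.302% of the table. The ratio of the scaled sums was 1.08-fold in basal cells (99% interval 1.04 to 1.12) and 1.07-fold in luminal cells (1.03 to 1.10). Single members varied around that ratio 2.63 times as much in basal and 2.77 times as much in luminal cells as counting error allows, in variance, so these intervals are too narrow.

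**Figure D1:**
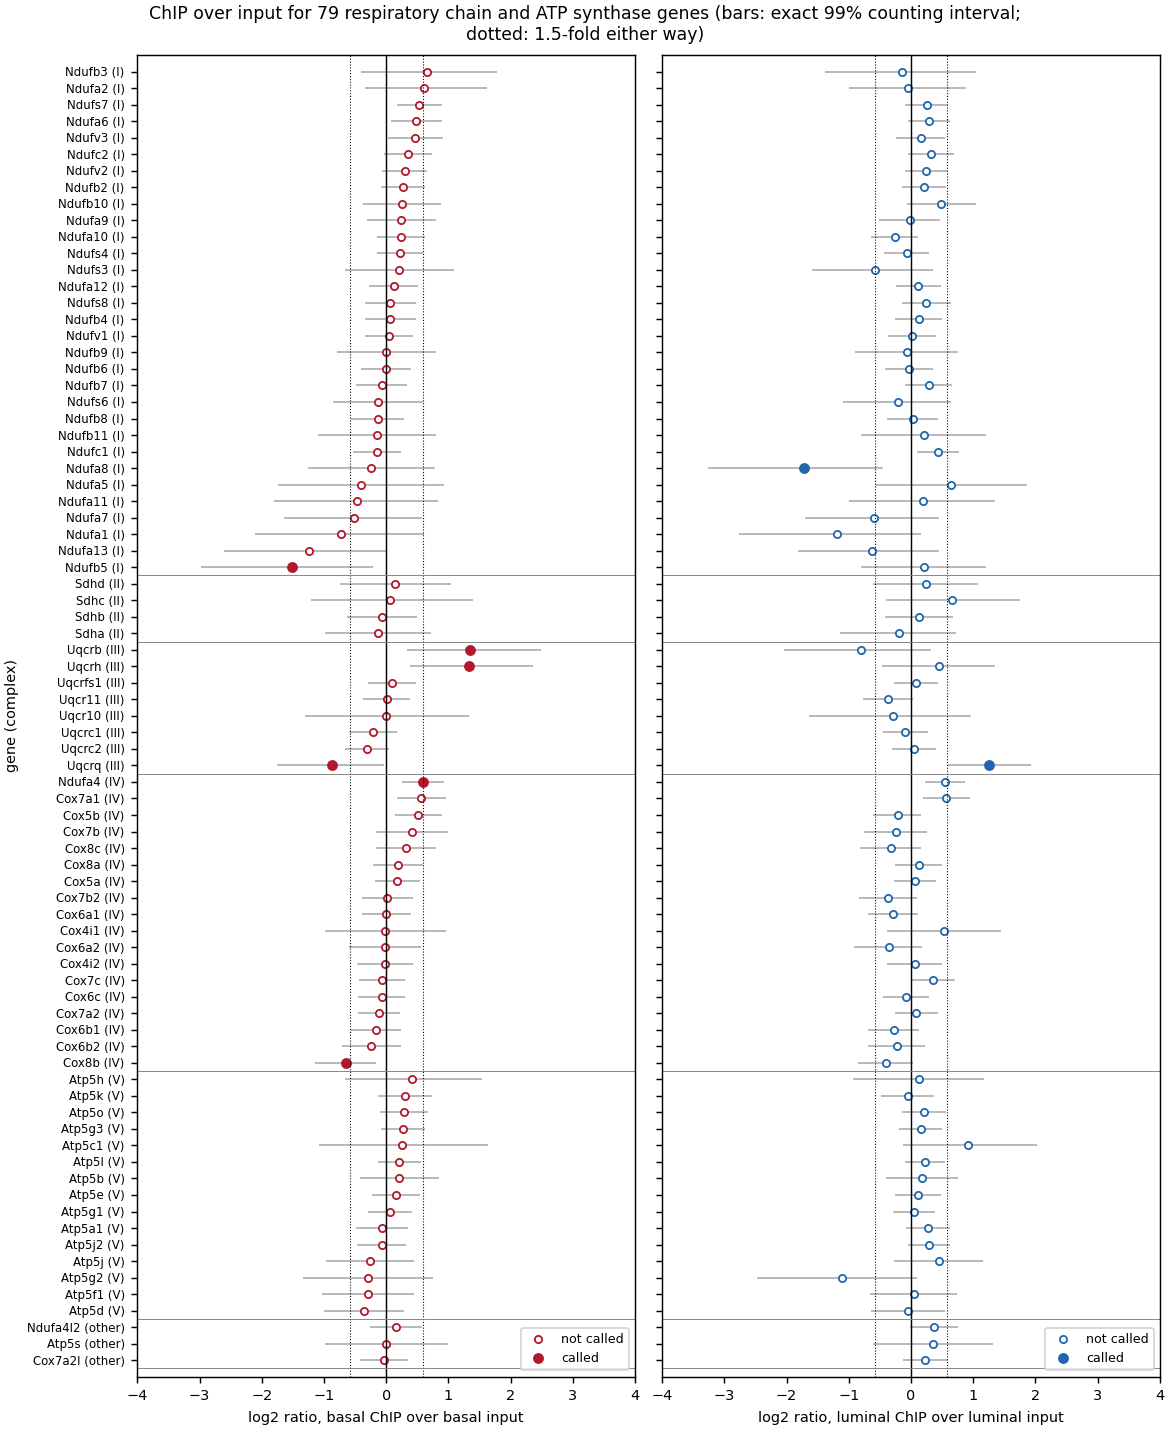
Log2 ratio of scaled ChIP over scaled input reads for 79 of the tested genes, basal cells on the left and luminal cells on the right, grouped by complex. Bars are exact 99% counting intervals, dotted lines mark 1.5-fold either way and filled points are called genes: 6 in basal and 2 in luminal cells, with the widest intervals in genes of few reads.

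Complex III, which moves electrons from ubiquinol to cytochrome c, held 3 of the 7 members called in either cell type, all of them small supernumerary subunits with few reads. Over all genes tested with under 200 input reads, 9.09% were called in either direction in basal cells and 5.76% in luminal cells. At any depth 4.24% were higher and 4.06% lower in basal cells, and 1.5% and 2.13% in luminal cells. Nothing is read from the count of 3. Uqcrb, whose protein lies beside the ubiquinone pocket (chr13:66900576-66905350), had 54 reads in ChIP and 18 in input from basal cells, and 16 and 38 from luminal cells. Only its basal ChIP library was high; the basal ratio was 2.55-fold (99% interval 1.26 to 5.58) and the luminal one 0.573-fold (0.242 to 1.25, not called). Uqcrh, the acidic hinge protein that helps cytochrome c1 meet cytochrome c (chr4:116066965-116075070), had 62 reads in ChIP and 21 in input from basal cells, and 37 and 37 from luminal cells. Its basal ratio was 2.51-fold (1.31 to 5.15), and its luminal ratio of 1.36-fold (0.725 to 2.55) was not called.

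Uqcrq, a subunit that contacts cytochrome b (chr11:53427922-53430831), had 34 reads in ChIP and 53 in input from basal cells, and 91 and 52 from luminal cells. After scaling, basal input was above luminal input by log2 0.47 without a call, and the ChIP libraries stood on opposite sides of both inputs. The ratio was 0.544-fold in basal cells (99% interval 0.298 to 0.974) and 2.38-fold in luminal cells (1.51 to 3.82). The basal call was kept in 6 of 10 alternative settings. It was lost with both inputs summed as background and with ratios centred on olfactory receptor genes. An interval widened by the spread of those genes and a minimum of 2-fold also removed it. The luminal call was kept in 10 of 10 alternative settings.

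The other 5 complex III genes were not called. The core proteins Uqcrc1 and Uqcrc2 had log2 ratios of -0.21 and -0.30 in basal cells and -0.09 and 0.05 in luminal cells. Uqcrfs1, the Rieske iron-sulfur protein, had 219 reads over 175 in basal and 213 over 274 in luminal cells, log2 0.09 and 0.08. Uqcr11 lay at 0.01 and -0.37 and Uqcr10 at -0.00 and -0.29. The called genes of complex III had 56 to 105 reads over both inputs, while Uqcrc1, Uqcrc2, Uqcrfs1 and Uqcr11 had 435 to 502.

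**Figure D2:**
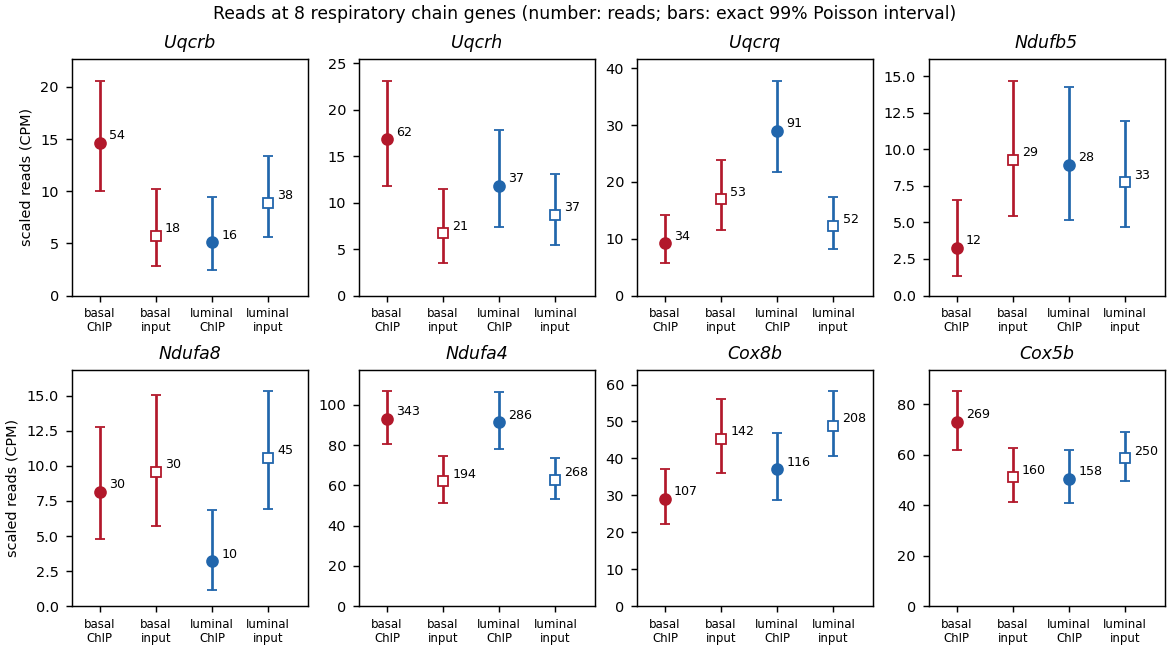
Scaled reads (y axis, counts per scaled library size, CPM) at 8 genes in each of the 4 libraries, with the read number printed beside each point and exact 99% Poisson intervals as bars. Filled circles are ChIP and open squares input, red basal and blue luminal; Uqcrb is high only in basal ChIP (54 reads) and Uqcrq is lowest in basal ChIP (34) and highest in luminal ChIP (91).

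Complex I, the NADH dehydrogenase, had no member called higher in either cell type. Ndufb5, a supernumerary subunit of the membrane arm (chr3:32737057-32751559), had 12 reads in ChIP and 29 in input from basal cells, and 28 and 33 from luminal cells. Basal ChIP was the low library, with a ratio of 0.351-fold (99% interval 0.128 to 0.862) against 1.15-fold in luminal cells (0.570 to 2.31, not called). Ndufa8, a supernumerary subunit facing the intermembrane space (chr2:36036324-36049338), had 30 reads in ChIP and 30 in input from basal cells, and 10 and 45 from luminal cells. Here luminal ChIP was low, at 0.302-fold (0.104 to 0.732) against 0.849-fold in basal cells (0.420 to 1.71, not called). Both genes had under 100 reads in every library.

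Of the 7 core subunits of complex I that are encoded in the nucleus, 6 were tested and none was called in ChIP over input. Ndufs7, which holds the last iron-sulfur cluster before ubiquinone, had 300 reads over 176 in basal cells (1.45-fold, 99% interval 1.13 to 1.86) and 230 over 263 in luminal cells. Its basal interval excluded 1, but its fold stayed under the minimum. Ndufv1 and Ndufv2, which take up electrons from NADH, lay at log2 0.04 and 0.29 in basal and 0.01 and 0.24 in luminal cells. Ndufs8 stood at 0.07 and 0.25, and Ndufs3 at 0.20 and -0.59. Among the other complex I genes, Ndufb3 (0.65) and Ndufa2 (0.61) had the highest basal ratios and Ndufa13 (-1.24) and Ndufa1 (-0.72) the lowest after Ndufb5, and none of these 4 was called. In luminal cells Ndufa5 stood at 0.65 and Ndufa1 at -1.19 without a call; Ndufa1 had 10 to 31 reads per library. Over the 32 genes of complex I the median was 0.07 in both cell types.

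Complex II, succinate dehydrogenase, is built of 4 nuclear subunits and works in the tricarboxylic acid cycle as well as in the chain. None was called in either cell type. Sdha, the flavoprotein, had 44 reads in ChIP and 41 in input from basal cells, and 29 and 45 from luminal cells. Sdhb, the iron-sulfur subunit, had 98, 87, 88 and 109 reads in the same order. ChIP and input thus stood near each other in both. The membrane anchors Sdhc and Sdhd had log2 ratios of 0.07 and 0.14 in basal cells and 0.66 and 0.24 in luminal cells, Sdhc on 17 to 29 reads per library. Intervals were wide: that of Sdhc in luminal cells ran from 0.754-fold to 3.35-fold.

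Complex IV, cytochrome c oxidase, had 1 member called higher and 1 lower in basal cells. In luminal cells it had none. Ndufa4, first described with complex I and now placed in complex IV (chr6:11900372-11907450), had 343 reads in ChIP and 194 in input from basal cells, and 286 and 268 from luminal cells. Both ChIP libraries were above their inputs, by 1.5-fold in basal cells (99% interval 1.19 to 1.90) and 1.45-fold in luminal cells (1.16 to 1.81). The basal value sat at the minimum fold and was not called with total reads as scale or with the inputs summed; the luminal value lay just under the minimum. Cox8b, the isoform of subunit 8 used in heart and skeletal muscle (chr7:140898942-140900446), had 107 reads in ChIP and 142 in input from basal cells, and 116 and 208 from luminal cells. It was below input in both cell types, 0.640-fold in basal (0.455 to 0.895) and 0.759-fold in luminal cells (0.557 to 1.03, not called). The basal call was lost with ratios centred on olfactory receptor genes.

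Several subunits of complex IV exist as a widely used form and a tissue-restricted one. The 8 tissue-restricted members (Cox4i2, Cox6a2, Cox6b2, Cox7a1, Cox7b2, Cox8b, Cox8c and the hypoxia-induced Ndufa4l2) had a median log2 ratio of -0.00 in basal and -0.27 in luminal cells. Their 7 partners (Cox4i1, Cox6a1, Cox6b1, Cox7a2, Cox7b, Cox8a and Ndufa4) had medians of -0.00 and 0.08. Cox7a1, the heart and muscle form of subunit 7a (chr7:30184171-30186030), had 250 reads in ChIP and 144 in input from basal cells, and 218 and 200 from luminal cells. At 1.47-fold (99% interval 1.12 to 1.95) and 1.48-fold (1.15 to 1.92) it lay above input in both cell types and just under the minimum fold in both. Cox6a2, another heart and muscle form, lay at -0.02 and -0.35, and Cox4i2 at -0.03 and 0.06. The testis forms Cox6b2, Cox7b2 and Cox8c lay at -0.24, 0.01 and 0.32 in basal and at -0.23, -0.36 and -0.32 in luminal cells. Ndufa4l2 stood at 0.16 and 0.36. Of the widely used forms, Cox4i1 had 35 reads over 30 in basal and 37 over 35 in luminal cells, log2 -0.01 and 0.52, without a call. Cox5a, a matrix-side subunit with no isoform partner, lay at 0.18 and 0.07.

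Complex V, ATP synthase, had none of its 15 genes called in ChIP over input in either cell type. Atp5a1 and Atp5b encode the alpha and beta subunits of the catalytic head. Atp5a1 had 174 reads in ChIP and 155 in input from basal cells, and 213 and 240 from luminal cells, and Atp5b had 87, 64, 80 and 96 in the same order. After scaling these were log2 -0.07 and 0.27 for Atp5a1, and 0.21 and 0.18 for Atp5b. Atp5c1, the rotating gamma subunit, had 21, 15, 32 and 23 reads and the highest luminal ratio of the complex, log2 0.92, with an interval of 0.909-fold to 4.05-fold. Atp5g2, a gene for the c subunit of the membrane ring, had 28, 29, 13 and 38 reads and the lowest luminal ratio of the complex (-1.10, not called). The 15 genes had a median of 0.16 in basal and 0.15 in luminal cells. Above 0 were 9 and 12 of them, 60.0% and 80.0%, against 48.4% and 49.6% of all tested genes. The numbers 9 and 12 did not move with total reads as scale. They became 11 and 14 with the median of the olfactory receptor genes set to 0. With 15 genes, nothing is read from these numbers.

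The cell types were compared by the difference of the basal and the luminal log2 ratio, from the 4 counts plus 0.5. Higher in basal cells were 3 members, Uqcrb and Cox5b among them, where 3.72% of all tested genes were called, and lower were 3 (Uqcrq, Ndufb5 and Ndufc1), where 4.16% were. Uqcrq differed by -2.12 (standard error 0.40 from counting) and Uqcrb by 2.10 (0.58), in opposite directions within complex III. Ndufb5 differed by -1.69 (0.61).

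Cox5b, the zinc-binding subunit of complex IV (chr1:36691487-36693388), was among the better counted of these, with 269 reads in ChIP and 160 in input from basal cells, and 158 and 250 from luminal cells. It lay at 1.43-fold in basal cells (99% interval 1.10 to 1.86) and 0.860-fold in luminal cells (0.657 to 1.12), a difference of 0.73 (0.21). Ndufc1, a small membrane-arm subunit of complex I (chr3:51405479-51408955), had 198, 187, 252 and 254 reads, with basal ChIP near its input and luminal ChIP above it after scaling, a difference of -0.59 (0.19). That value lies at the minimum fold, and it was lost in 5 of 10 alternative settings. Uqcrh, called in basal cells, and Ndufa8, called in luminal cells, did not pass in the difference (0.86 and 1.43, standard errors 0.49 and 0.62).

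Over the 80 members, which are genes and no replicates of each other, the ratios of both cell types were weakly related (Pearson's r 0.10, Spearman's rho 0.15). Among the 48 members with 200 or more input reads they were 0.34 and 0.26, close to the 0.33 and 0.31 of the 18892 tested genes of that depth. The points share gene length, base composition and neighbours, but no library.

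**Figure D3:**
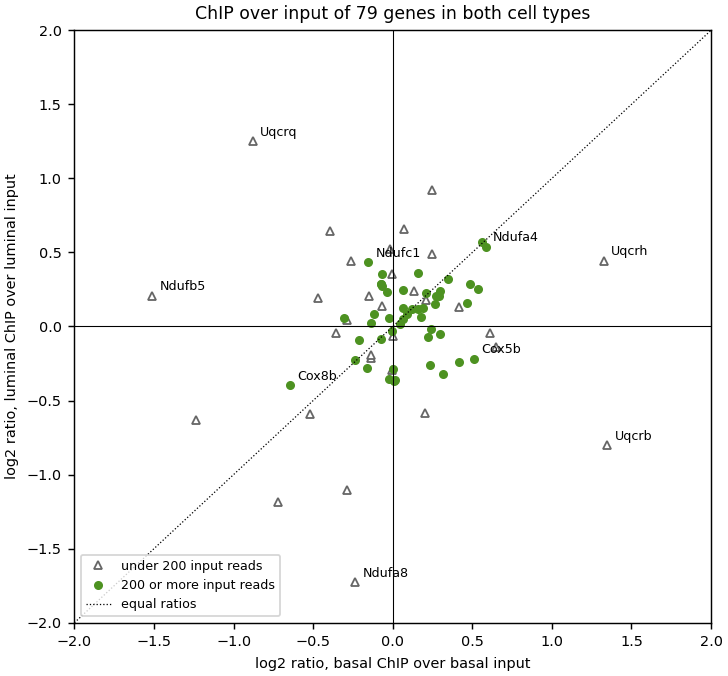
Log2 ratio of ChIP over input in basal (x axis) and luminal cells (y axis) for 79 of the tested genes, circles for 200 or more input reads and triangles for fewer, with called genes named. The circles lie between -0.64 and 0.59 on the x axis and between -0.40 and 0.57 on the y axis, and the points far from the diagonal are triangles, among them Uqcrq and Uqcrb.

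Basal input over luminal input, which holds no antibody signal, gave no member called higher, where 0.709% of all tested genes were, and 1 lower, where 0.463% were. That member was Cox7b, an X-linked subunit of complex IV, with 72 reads in basal and 148 in luminal input (log2 -0.59) and 113 and 92 in the ChIP libraries. Its ratios of ChIP over input were 0.41 and -0.24, and between the ChIP libraries it stood at 0.06. The variance of members between the inputs was 1.02 times that of counting, against 3.13 times between the ChIP libraries. Over all tested genes these values were 1.91 and 3.88, and over the olfactory receptor genes 1.32 and 3.07. A wider spread between the ChIP libraries was thus not particular to the members. Basal ChIP over luminal ChIP gave 3 members higher (Uqcrb and Cox7b2 among them; 4.05% of all tested genes) and 2 lower (Uqcrq and Ndufb5; 3.98%). Cox7b2 had 188 reads against 104, log2 0.62, with inputs of 158 and 182. Uqcrq stood at -1.66 between the ChIP libraries and at 0.47 between the inputs.

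The calls lay mostly among members with few reads. In the 32 members with under 200 input reads, basal log2 ratios ran from -1.51 to 1.35 and luminal ones from -1.73 to 1.25, and 4 were called in basal and 2 in luminal cells. That is 12.5% and 6.25%, against 9.09% and 5.76% of all 4236 tested genes of that depth. In the 48 better counted members the ranges were -0.64 to 0.59 and -0.40 to 0.57, with 2 called in basal and none in luminal cells, or 4.17% and 0.0% against 8.13% and 3.15% of 18892 genes. Relative to counting error the spread of members in basal ChIP over input was alike in both classes, at 2.52 times its variance in the low class and 2.67 times in the high class.

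Low counts went together with a close neighbour. Another gene lay within 1000 bp of 50 of the 80 members, 62.5% against 39.8% of tested genes with a position. Under 200 input reads were found in 32 members and in 18.3% of those tested genes. Members with such a neighbour had a median of 112.5 reads over both inputs (range 38 to 515), members without one 411.5 (196 to 522). Of the 32 members with under 200 input reads, 31 had a gene within 1000 bp, and so did all 6 members called in basal and both called in luminal cells. How often called genes had such a neighbour over the whole table was not computed. The standard deviation of the basal log2 ratio was 0.509 with a close neighbour and 0.206 without, and in luminal cells 0.526 and 0.225. Input counts over 3834 genes were best tracked by a window from 3000 bases before to 2500 bases after the start, without stretches shared with another gene's window (r = 0.772). This is an inference from the counts, with exceptions on both sides. Ndufa4 had 462 input reads although Phf14 lies 275 bp away, and Ndufv3 had 329 although Wdr4 lies 130 bp away. Ndufs5 had 1 read in all although its nearest gene lies 17009 bp away, and Atp5b, Atp5g2, Atp5s and Sdhb had under 200 input reads although their whole windows were unshared.

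**Figure D4:**
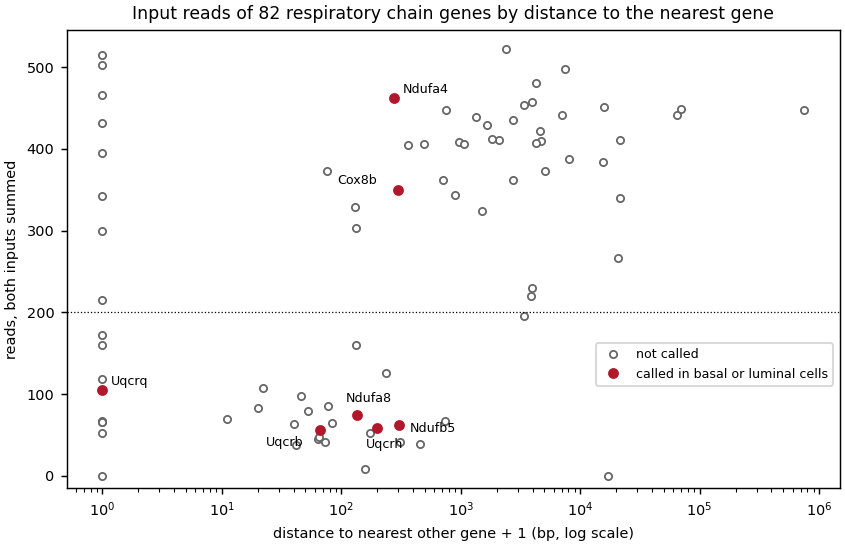
Reads summed over both inputs for 82 of the genes (y axis) against the distance to the nearest other gene plus 1 bp (x axis, log scale, overlapping genes at 1), with genes called in either cell type filled. The dotted line marks 200 reads; 5 of the 7 called genes lie under it, and Ndufa4 and Cox8b lie above it.

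None of the 7 called members had a nearest gene called in the same comparison. Gm10767, 65 bp from Uqcrb, had 22 reads in ChIP and 21 in input from basal cells, and 68 and 37 from luminal cells: it was called higher in luminal cells (log2 1.32), where Uqcrb was not, and stood at -0.17 in basal cells. Lrrc41, 199 bp from Uqcrh, lay at -0.85 in basal and 0.44 in luminal cells, and Mrpl47, 302 bp from Ndufb5, at 0.72 and 0.67. Gdf9, the oocyte growth factor gene that overlaps Uqcrq, had 30, 39, 46 and 65 reads (log2 -0.62 and -0.05, not called). Morn5, 135 bp from Ndufa8, lay at -0.79 and 0.31. Of 48 tested nearest genes, 2 were called in basal cells (Cbarp beside Atp5d at 1.32 and Capns1 beside Cox7a1 at 1.27). In neither case was the member itself called. Shares over the whole table were 4.24% (higher) and 4.06% (lower) for basal cells, and 1.5% and 2.13% for luminal cells. The lack of paired calls among so few genes is therefore not read as a result about neighbours. Whether reads shared between neighbouring windows shape the ratios of members or of their nearest genes was not tested.

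Other genes that build or feed the chain, 93 tested of 97 listed, had medians of 0.04 in basal and 0.10 in luminal cells. In basal cells 3 of them were called higher (3.23%) and 4 lower (4.30%), against 4.24% and 4.06% of all genes tested. In luminal cells 3 were higher (3.23%) and none lower, against 1.5% and 2.13% of all genes. Among 45 assembly factors, Cox20, which guides a core subunit of complex IV into the membrane, was called higher in both cell types, with 439 reads over 226 in basal and 398 over 333 in luminal cells (log2 0.72 and 0.70). Cox18, a membrane insertase for the same subunit (291 over 259, log2 0.61), and the copper carrier gene Sco2 (145 over 129, log2 0.61) were called higher in luminal cells. Lower in basal cells were the complex I factor Ndufaf5 (24 over 41, log2 -1.01) and the complex III factor Ttc19 (11 over 30, log2 -1.68). Of the assembly factors 2.22% were called higher and 4.44% lower in basal cells, and 6.67% higher and 0.0% lower in luminal cells. Over all genes the shares were 4.24% and 4.06%, and 1.5% and 2.13%. Of 19 tricarboxylic acid cycle and pyruvate dehydrogenase genes none was called in either cell type. With so few genes per list, nothing is read from these shares.

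Of 13 regulators of mitochondrial biogenesis, Gabpb1, which encodes the partner of the ETS factor Gabpa, was called higher in basal cells with 432 reads over 165 (log2 1.15) and stood at 0.58 in luminal cells. Tfb1m, a mitochondrial ribosomal RNA methyltransferase gene, was called lower in basal cells (26 over 45, log2 -1.03). Nrf1 lay at 0.25 and 0.30, Gabpa at -0.36 and 0.11, Tfam at 0.42 and 0.33 and the coactivator gene Ppargc1a at -0.14 and -0.16, none of them called. Among 9 membrane carriers the phosphate carrier gene Slc25a3 was called higher in basal cells (371 over 189, log2 0.74). Of the subunit genes that the symbol rule does not take, Usmg5 of ATP synthase was called lower in basal cells with 12 reads over 45 (log2 -2.14). Cytochrome c (Cycs, -0.24 and -0.56), cytochrome c1 (Cyc1, -0.10 and 0.10) and Ndufab1 (-0.08 and 0.11) were not called. These lists are short, so single calls in them are not read against the 4.24% higher and 4.06% lower of all genes in basal cells. Of 69 mitochondrial ribosomal protein genes 5 were called lower (7.25%) and none higher in basal cells, against 4.06% and 4.24% of all genes, and none was called in luminal cells. Of 71 cytosolic ribosomal protein genes 4 were called higher (5.63%) and none lower in basal cells, and 2 higher (2.82%) and none lower in luminal cells, where 1.5% and 2.13% of all genes were called.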

How the data were processed

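Foxp1 ChIP and input DNA libraries from basal and luminal mammary epithelial cells were analysed, 1 of each per cell type. The authors deposited unnormalized read counts for each gene. Per the labels' protocols, single-end reads of 75 to 85 bases were sequenced. Per the submitters' processing notes, reads were counted with featureCounts and the build was mm10. The aligner, the treatment of duplicates and of reads matching several places, and the region counted per gene are not stated in the sources. The counts in each per-sample file were equal to those of the table for 24548 of 24548 genes.

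Counts were scaled by TMM over the 23128 genes with at least 40 reads in all (edgeR 4.0.16, R 4.3.3). Each ratio has an exact Clopper-Pearson 99% interval (Python 3.11.15, scipy 1.17.1, numpy 2.4.6, pandas 2.3.3), and no p-value was computed because each group has 1 library. Intervals cover counting error only and ignore that PCR can copy a molecule. Calls were made over the whole table at 1.5-fold or more with the interval excluding 1, and a count of 0.5 was added only to genes with a 0 and in the difference of ratios. The spread beyond counting is the variance of each gene's reads about the pooled split of the gene set in question, divided by the binomial expectation. The steps were tested on simulated data. Members and lists were chosen with earlier results of these data known. Named were members called in any comparison, the 4 highest and 4 lowest ratios per cell type, catalytic subunits, tissue isoforms and, from the other lists, called genes and 8 set genes; neighbours, Foxp1 and cell type marker genes were added as references, neighbours and the counted window after the values were seen. Promoters on chromosome 18 were not used, and 1 member that this rule names is not reported here. Gene positions and promoters came from RefSeq (GRCm38.p6, matched by gene ID for 24476 of 24548 genes); plots used matplotlib 3.10.9. Alternatives were total counts, DESeq2 1.42.0 size factors, ratios centred on 1090 olfactory receptor genes, both inputs summed, an interval widened by the receptor spread, a 95% interval, 2-fold or no minimum fold, and minimums of 1 and 200 reads.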

Additional observations from a re-analysis of the deposited data

Results flagged for a closer look

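Uqcrq was the member called in opposite directions in the 2 cell types, below input in basal cells (34 reads over 53) and above input in luminal cells (91 over 52). Its basal log2 ratio minus its luminal one was -2.12 (99% counting interval -3.15 to -1.08). Over animals the difference was not tested, since each group has 1 library. The basal ratio is the less certain, with an interval of 0.298-fold to 0.974-fold.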

How the results depend on the processing

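No paired analysis was possible because each group has 1 library, and for the same reason none could be left out. No result turned its direction once called. The shares of all tested genes called are given here for the main setting only. The counts under other settings are therefore not read as results about the members. With ratios centred on olfactory receptor genes, which shifts the median of all genes to 0.20 in basal and 0.07 in luminal cells, members called higher and lower in basal cells were 10 and 0 in place of 3 and 3, those higher in luminal cells 3, those in the difference 6 and 1, and those between inputs 3; the member medians became 0.244 and 0.150. With total counts the basal median was -0.027. Under the receptor-widened interval, basal calls were 1 higher (Ndufa4) and 0 lower, luminal lower calls 0, the difference 0 and 1 (Uqcrq), inputs 0 and ChIP libraries 1. With no minimum fold, basal higher calls were 8, luminal higher calls 5, inputs 2 and ChIP libraries 9. With a 95% interval luminal calls were 2 and 3 and the difference 6 higher; with the inputs summed luminal calls were 2 and 2. At 2-fold, basal lower calls were 1 and inputs 0. At 200 or more reads in all, basal higher and luminal lower calls were 0, because Uqcrb, Uqcrh and Ndufa8 have fewer reads and Ndufa4 slipped under 1.5-fold. The luminal call and the difference of Uqcrq were kept in 10 of 10 settings. Depth limits the 31 members with under 100 reads in each library: the interval of Sdhc in luminal cells spans 0.754-fold to 3.35-fold.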
